A study of Mus musculus with 25 samples.

Results

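Zeb2os is a long non-coding RNA gene that lies antisense to Zeb2, and the 4 libraries described here compare cultured mouse astrocytes given a knockdown lentivirus against Zeb2os (2 libraries) with cultures given a control lentivirus (2 libraries). They were chosen as the 4 columns of the count table that carries the Zeb2os culture names, out of 25 libraries in the series. The cells came from brains of C57BL/6 pups of postnatal day 4 to 7, were grown for 7 days, and were then shaken overnight to take off microglia, fibroblasts and oligodendrocytes. Both groups were infected and selected with puromycin at 1 µg/ml from 24 h after infection. The labels give 3 days of selection in one field and 5 days in another, for both groups alike. The control genotype is given as WT and the other as Zeb2os -/-, although the protocols describe a knockdown virus. The labels do not give the knockdown construct, nor say that replicates were separate cultures, so p-values measure only the spread between these libraries, which may be technical. Both groups carry a lentivirus and underwent drug selection, and no uninfected culture was analysed here.

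Astrocytes are the glial cells that support neurons and the blood-brain barrier, and after injury they become reactive, with more of the filament protein GFAP. Zeb2 is a zinc finger transcription factor that binds E-box sequences in DNA, represses epithelial genes such as E-cadherin and acts in the TGF-beta pathway. In human cells, the natural antisense transcript of ZEB2 is known for keeping an intron in the 5' untranslated region of the ZEB2 messenger RNA, which raises translation of the protein. RNA counts of the kind analysed here do not measure that step.

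Zeb2os (ENSMUSG00000052248) lies on the plus strand of chromosome 2 at 45110707 to 45114087 in GRCm38, inside Zeb2 (ENSMUSG00000026872), which lies on the minus strand at 44983632 to 45117395. Of the 1990 exonic bases of Zeb2os, 653 (32.8%) are also exonic in Zeb2 on the other strand. A stretch of its first exon is shown because it holds both kinds of sequence. The 30 capitals mark bases that are also exonic in Zeb2 and the 120 small letters mark bases that are exonic in Zeb2os alone, from the GENCODE M21 transcripts.
Zeb2os exon 1 (chr2:45110725-45110874, plus strand): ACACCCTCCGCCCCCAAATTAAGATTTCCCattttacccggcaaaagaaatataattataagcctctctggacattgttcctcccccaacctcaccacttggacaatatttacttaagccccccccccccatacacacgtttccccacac

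Counts of the targeted RNA did not separate the groups. Zeb2os had 464 and 666 counts in control libraries 1 and 2, and 134 and 209 counts in the libraries labelled knockdown 1 and 2. Scaled to depth, these were 5.82 and 3.80 CPM (read counts scaled to library size) in the controls and 3.14 and 4.32 CPM in the libraries labelled knockdown, so knockdown 2 lay above control 2. The log2 difference, knockdown minus control, was -0.36 with a standard error (SE) of 0.35 and an adjusted p of 0.735 (edgeR's quasi-likelihood test, n = 2 a group). For that reason the groups are named below by their labels, and every direction rests on the labels. Zeb2, the gene on the other strand, stood at 51.7 and 70.2 CPM in the controls and at 49.95 and 57.5 CPM in the libraries labelled knockdown. Its groups overlapped too, with a log2 difference of -0.18 (SE 0.22, adjusted p = 0.796 in edgeR). Zeb2os counts came to 11.2% and 5.42% of the Zeb2 counts in the controls and to 6.28% and 7.51% in the libraries labelled knockdown. The strand setting of the counting is not given in the sources used here, and reads from the shared exonic bases of the 2 genes cannot be told apart without it.

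The 4 libraries differed in ways beyond their group. Control libraries held 78.8 and 158 M counts, and libraries labelled knockdown 45.6 and 50.9 M. Lars2, a mitochondrial tRNA synthetase gene, took 2.40% of the counts of knockdown 1 and 0.0661% to 0.168% of the other 3. Control 2 differed from control 1 by gene length. Among coding genes with an average log2 CPM of at least 0, the median log2 difference of control 2 minus control 1 was -0.46 in the fifth with the shortest exonic length and 0.32 in the fifth with the longest. The same medians for knockdown minus control were 0.23 and -0.20, and those for knockdown 2 minus knockdown 1 were 0.03 and 0.01. The plot of median difference by exonic length shows that the knockdown comparison carries a length trend that also separates the controls from each other. Results are therefore also given with this trend removed from each library, a correction chosen after the data were seen.

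**Figure D1:**
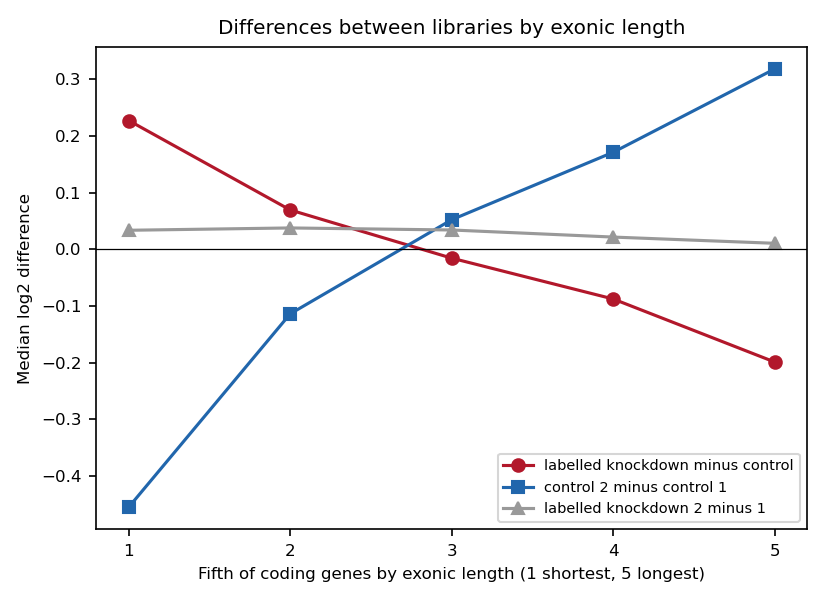
Median log2 difference (vertical axis) in 5 equal groups of coding genes ordered by exonic length (horizontal axis, 1 shortest, 5 longest), for labelled knockdown minus control (circles), control 2 minus control 1 (squares) and labelled knockdown 2 minus 1 (triangles). The knockdown comparison falls from 0.23 to -0.20, the control pair climbs from -0.46 to 0.32, and the knockdown pair stays between 0.01 and 0.04.

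In the cultures labelled knockdown, 5 genes of an interferon-stimulated list and the astrocyte filament gene Gfap were lower. Genes that rose included the growth factor gene Ereg, the urokinase genes Plau and Plaur, and the filament and actin genes Des and Acta1. Of 20741 genes tested, 39 (0.188%) changed at an adjusted p under 0.05 in edgeR: 25 rose (0.121% of genes tested) and 14 fell (0.0675%). Those shares are the background for each count below of list members that rose or fell in this edgeR fit. The genes that fell were Gbp3, Rab11fip4, Igsf11, Ifi44, Slc22a23, Cxcl10, Gbp2, Derl3, Ifit3b, Gfap, Ddx60, Sfxn5, A2m and Neurl1b. The genes that rose included Lce1h, Il11, Klf2, Stmn3, Ereg, Serpinb9b, Crct1, Esam, Des, Nr4a1, Sema7a, Ankrd1, Rln3, Plau, Edn2, Perp, Crabp2, Bcat1, Acta1, Eno3, Plaur, Nppb, Vgf and Mcam. In every one of these 39 the 2 libraries labelled knockdown lay on the same side of both controls. Over all genes tested they lay above both controls in 21.3% and below both in 23.4%. All 39 are coding genes, and all kept their sign under each of 11 alternative settings. The genes were chosen in these same libraries, so neither the separation nor the kept sign is independent evidence. The number of calls was not stable. Leaving out control 1, control 2, knockdown 1 or knockdown 2 gave 4354, 901, 20 and 70 calls. DESeq2 called 553 genes, a replicate block in edgeR 554, and edgeR with the length trend removed 145, and each of these held all 39. One edgeR fit of all 8 cultured libraries called 0.

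**Figure D2:**
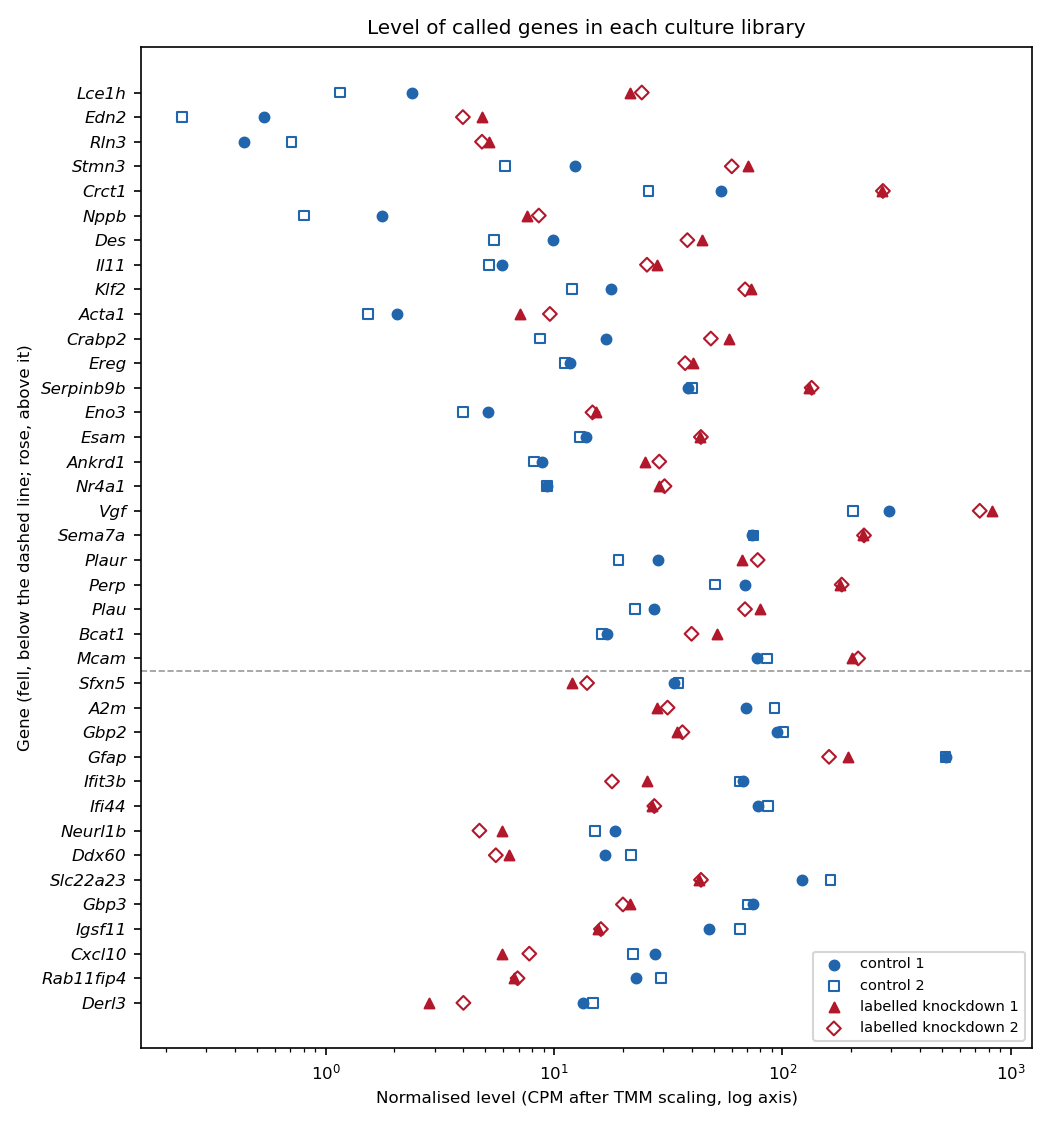
Level of 38 of the 39 called genes (vertical axis) in CPM on a log axis (horizontal axis) in control 1 (filled circles), control 2 (open squares), labelled knockdown 1 (filled triangles) and labelled knockdown 2 (open diamonds). Blue and red marks do not overlap for any gene drawn; Gfap stands at 519 and 517 CPM in the controls and at 194 and 160 CPM in the libraries labelled knockdown.

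**Figure D3:**
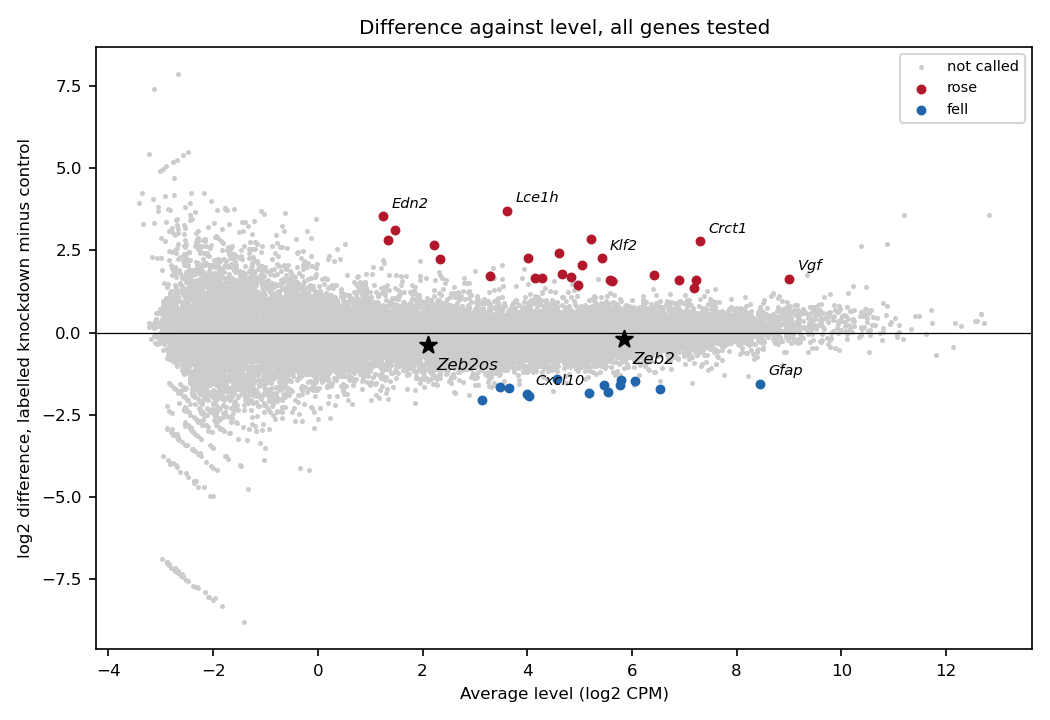
The log2 difference, labelled knockdown minus control (vertical axis), against average level in log2 CPM (horizontal axis) for the 20741 genes tested: not called (grey), rose (25, red) and fell (14, blue). Stars mark Zeb2os at -0.36 and Zeb2 at -0.18, both within the grey cloud.

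Interferon-stimulated genes carry out the antiviral programme that interferons switch on through transcription factors that include STAT2 and IRF9. Of 41 tested members of a list of such genes, 5 fell (Gbp3, Ifi44, Cxcl10, Gbp2 and Ifit3b), none rose, and all 41 had a log2 difference below 0. At an unadjusted p under 0.05, 29 of 41 were lower and 0 higher, where 6.72% and 4.97% of all genes tested were. In 35 of 41 both libraries labelled knockdown lay below both controls, against 23.4% of all genes tested. The median log2 difference was -0.94, beside -0.01 over all genes tested. The list's summed level was 4096 and 3441 CPM in the controls and 2312 and 2232 CPM in the libraries labelled knockdown.

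Gbp2 and Gbp3 encode guanylate-binding proteins, interferon-induced GTPases that act against intracellular pathogens. Gbp3 stood at 74.1 and 70.9 CPM in the controls and at 21.4 and 20.02 CPM in the libraries labelled knockdown, a log2 difference of -1.81 (SE 0.20, adjusted p = 0.0227 in edgeR). Gbp2, also used as a marker of A1-type reactive astrocytes, stood at 94.5 and 101 CPM against 34.6 and 36.5 CPM (log2 difference -1.46, SE 0.20, edgeR adjusted p = 0.0334). Both genes were close between replicates and far apart between groups. They belong to a family of similar copies on chromosome 3, and the counting may split reads between them.

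Cxcl10 encodes a chemokine that draws T cells, and it is also counted among pan-reactive astrocyte genes. It stood at 27.7 and 22.2 CPM in the controls and at 5.94 and 7.79 CPM in the libraries labelled knockdown (log2 difference -1.86, SE 0.25, edgeR adjusted p = 0.0306). Ifi44, an interferon-induced gene, had 78.4 and 86.6 CPM against 26.9 and 27.5 CPM (log2 difference -1.60, SE 0.20, edgeR adjusted p = 0.0246). Ifit3b, which encodes an antiviral protein, had 67.1 and 65.2 CPM against 25.6 and 17.9 CPM (log2 difference -1.60, SE 0.23, edgeR adjusted p = 0.0407). Ifit3b is a close copy of Ifit3, so its reads may be shared with that gene. Ddx60, a helicase gene of the same antiviral programme that was not in the list, fell from 16.7 and 21.7 CPM to 6.36 and 5.56 CPM (log2 difference -1.69, SE 0.25, edgeR adjusted p = 0.0433).

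Transcription factor genes of the pathway that did not pass the test are given by their values. Irf7 stood at 75.0 and 64.2 CPM in the controls and at 29.99 and 31.1 CPM in the libraries labelled knockdown (log2 difference -1.19, edgeR adjusted p = 0.0662). Its groups were apart by more than the gap between replicates. Stat2 had a log2 difference of -0.73 and Irf9 of -0.54, with edgeR adjusted p of 0.231 and 0.338. Rsad2, which encodes the antiviral enzyme viperin, was at 21.6 and 18.7 CPM against 8.49 and 7.89 CPM (log2 difference -1.30, edgeR adjusted p = 0.0731). Irf7, Irf9 and Rsad2, which passed no naming rule, were chosen after their values were seen.

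The count of fallen interferon-stimulated genes moved with the libraries used. Without control 1, control 2, knockdown 1 or knockdown 2, edgeR called 26, 27, 0 and 2 of the 41 lower. The same fits called 9.33%, 1.91%, 0.00437% and 0.137% of all genes tested lower. Without knockdown 1, 20 of the 41 were lower at an unadjusted p under 0.05. The list's median log2 difference lay between -0.86 and -0.79 in these 4 fits. With the length trend removed 12 fell and none rose (background 0.328% lower and 0.371% higher), and in DESeq2 20 fell (background 1.39%).

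Promoters were searched for the letters GAAA, any 2 bases and GAAA again, on both strands. This is the core of the interferon-stimulated response element to which the complex with STAT2 and IRF9 binds. RefSeq promoters of GRCm38.p6, which run from 250 bases before to 50 bases after a gene's start, held it in 544 of 17254 promoters of the genes tested (3.15%). Promoters were found for 12 of the 14 genes that fell and 17 of the 25 that rose. Among the fallen genes 5 of 13 promoters held the letters, and among the genes that rose 0 of 19 did. Of the promoters of the 41 interferon-stimulated genes, 18 of 37 held it (48.6%). Among the fallen genes of that list, the promoter of Ifi44 held 0 matches, as did a second promoter of Gbp3. Ddx60, whose promoter held 2, is not in the list. The windows around the matches in the 5 fallen genes that held the letters are shown, with the matching letters in capitals. Each is written 5' to 3' on the gene's own strand, so a run of TTTC, 2 bases and TTTC is a match on the other strand.
Gbp2 (chr3:142620564-142620653, plus strand): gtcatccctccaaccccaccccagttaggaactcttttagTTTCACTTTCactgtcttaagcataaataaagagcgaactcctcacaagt 
Gbp3 (chr3:142559959-142560043, plus strand): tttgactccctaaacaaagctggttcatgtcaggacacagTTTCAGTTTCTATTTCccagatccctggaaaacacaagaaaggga 
Ifit3b (chr19:34607729-34607852, plus strand): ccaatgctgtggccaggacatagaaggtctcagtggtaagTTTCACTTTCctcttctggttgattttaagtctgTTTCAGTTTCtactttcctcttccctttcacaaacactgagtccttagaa 
Cxcl10 (chr5:92349053-92349139, minus strand): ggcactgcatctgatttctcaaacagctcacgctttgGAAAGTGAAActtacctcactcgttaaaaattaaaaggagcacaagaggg 
Ddx60 (chr8:61927994-61928086, plus strand): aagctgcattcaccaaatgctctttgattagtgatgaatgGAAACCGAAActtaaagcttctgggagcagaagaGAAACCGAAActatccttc
The matches begin 59 bases before the start of Gbp2, 45 and 39 before that of Gbp3, where they overlap, 188 and 154 before that of Ifit3b, 213 before that of Cxcl10, and 53 and 19 before that of Ddx60. They describe these letters only.

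**Figure D4:**
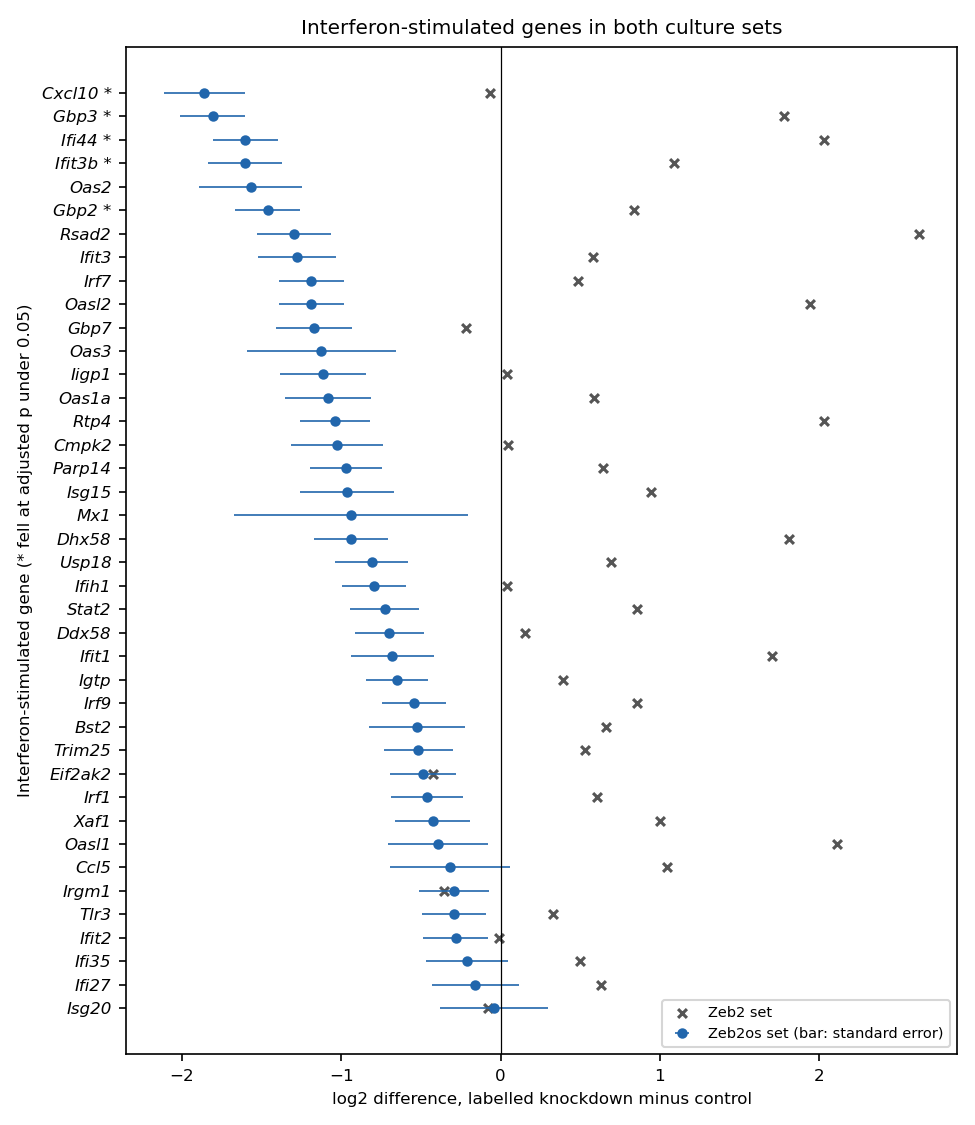
The log2 difference, labelled knockdown minus control (horizontal axis), of 40 of the 41 interferon-stimulated genes (vertical axis) in the Zeb2os set (circles with standard error, 2 libraries a group) and in the Zeb2 set (crosses, 37 of these genes tested there). All 40 circles lie below 0, and 31 of 37 crosses lie above 0.

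Gfap encodes the main intermediate filament protein of astrocytes and is the usual marker of astrocyte reactivity. It stood at 519 and 517 CPM in the controls and at 194 and 160 CPM in the libraries labelled knockdown. The controls agreed closely and lay far above both libraries labelled knockdown, with a log2 difference of -1.55 (SE 0.23, edgeR adjusted p = 0.0429). Of 35 tested genes of astrocyte identity and function, Gfap alone fell and none rose. At an unadjusted p under 0.05, 18 of 35 were lower and 1 higher, against 6.72% and 4.97% of all genes tested. In 21 of 35 both libraries labelled knockdown lay below both controls, against 23.4% of all genes tested. All 35 had counts, and 2 stood under 1 CPM in all 4 libraries. The list's median log2 difference was -0.53 and its summed level was 6131 and 5207 CPM in the controls against 4524 and 4427 CPM. In these bulk cultures fewer astrocytes and less RNA per astrocyte cannot be told apart.

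The other genes of that list did not pass the test, and some of those that were lower are given by their values. Of the 35 members, 30 had a log2 difference below 0 and 5 above 0, the highest at 2.42. In 3 of the 35 both libraries labelled knockdown lay above both controls, against 21.3% of all genes tested. Kcnj10, which encodes the potassium channel Kir4.1, was at 73.0 and 125 CPM in the controls and at 34.2 and 30.8 CPM in the libraries labelled knockdown (log2 difference -1.61, edgeR adjusted p = 0.0641). Aqp4, the astrocyte water channel, was at 123 and 170 CPM against 61.1 and 76.3 CPM (log2 difference -1.09, edgeR adjusted p = 0.127). Both genes also differed between the controls, with control 2 higher. Aldh1l1, a folate enzyme used as an astrocyte marker, was at 147 and 125 CPM against 88.3 and 63.0 CPM (log2 difference -0.85, edgeR adjusted p = 0.209). Sox9, a transcription factor of the astrocyte lineage, had 113 and 91.9 CPM against 57.8 and 69.0 CPM (log2 difference -0.69, edgeR adjusted p = 0.263). Slc1a3, the glutamate transporter GLAST, had a log2 difference of -0.59 and Gja1, connexin 43, one of -0.22. In DESeq2 10 of the 35 fell and 1 rose (background 1.39% of genes tested lower and 1.28% higher). Without control 1, control 2, knockdown 1 or knockdown 2 edgeR called 16, 14, 0 and 1 of them lower, against 9.33%, 1.91%, 0.00437% and 0.137% of all genes tested.

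Reactive astrocyte genes did not move as 1 block. Of 13 pan-reactive genes 2 fell (Cxcl10 and Gfap) and none rose (background 0.0675% and 0.121% of all genes tested). In that list 6 were lower and 3 higher at an unadjusted p under 0.05 (background 6.72% and 4.97%). Serpina3n, a secreted protease inhibitor, was at 68.1 and 76.9 CPM in the controls and at 27.7 and 31.4 CPM in the libraries labelled knockdown (log2 difference -1.30, SE 0.21), and missed the threshold in edgeR with an adjusted p of 0.0536. Timp1, an inhibitor of metalloproteinases, was at 868 and 476 CPM against 1452 and 1644 CPM (log2 difference 1.20, edgeR adjusted p = 0.164). Cd44, the hyaluronan receptor, was at 358 and 323 CPM against 649 and 663 CPM (log2 difference 0.95, edgeR adjusted p = 0.150). Thus Serpina3n and Gfap were low where Timp1 and Cd44 were high. Vim, the other main astrocyte filament gene, overlapped between groups at 5217 and 4036 CPM against 5105 and 5609 CPM (log2 difference 0.21, edgeR adjusted p = 0.776). Nes, a progenitor filament gene, had a log2 difference of -0.52, and Lcn2, an iron-carrier binding protein gene, stood at 1.505 and 1.40 CPM against 1.15 and 0.909 CPM.

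Of 12 genes used for A1-type reactivity, Gbp2 fell and none rose, with a median log2 difference of -0.31. In that list 1 was higher and 3 lower at an unadjusted p under 0.05 (background 4.97% and 6.72% of all genes tested). Of 12 genes used for A2-type reactivity none changed in edgeR, 3 rose in DESeq2 (background 1.28%), and the median was 0.38. In that list 4 were higher and 0 lower at an unadjusted p under 0.05 (background 4.97% and 6.72%). Ptgs2, which encodes cyclooxygenase-2, had the largest value of the A2-type list, 96.5 and 123 CPM in the controls against 247 and 299 CPM (log2 difference 1.31, edgeR adjusted p = 0.0762). Of 22 genes of STAT3 and gp130 signalling, Il11 rose and none fell, and 2 were higher and 4 lower at an unadjusted p under 0.05 (same background). Il11 encodes a cytokine of the interleukin-6 family that signals through gp130, and it rose from 5.91 and 5.18 CPM to 28.3 and 25.5 CPM (log2 difference 2.28, SE 0.23, edgeR adjusted p = 0.0227). Replicates of Il11 lay within a few CPM of each other. Stat3 itself was at 161 and 190 CPM against 148 and 129 CPM (log2 difference -0.34, edgeR adjusted p = 0.591), and Socs3, its feedback inhibitor, had a log2 difference of -0.41. The receptor genes Il6st, Osmr and Lifr had log2 differences of -0.69, -0.80 and -0.76.

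Klf2 and Nr4a1, 2 transcription factor genes induced early by stimuli, rose. Klf2, a Kruppel-like factor, rose from 17.7 and 12.01 CPM in the controls to 73.2 and 68.6 CPM in the libraries labelled knockdown (log2 difference 2.26, SE 0.24, edgeR adjusted p = 0.0227). Nr4a1, an orphan nuclear receptor induced by growth factors, rose from 9.35 and 9.34 CPM to 28.9 and 30.4 CPM (log2 difference 1.67, SE 0.21, edgeR adjusted p = 0.0266). Of 28 immediate early genes these 2 rose and none fell (background 0.121% and 0.0675% of all genes tested). At an unadjusted p under 0.05, 10 were higher and 1, Egr1, was lower, against 4.97% and 6.72% of all genes tested. In 21 of 28 both libraries labelled knockdown lay above both controls, against 21.3% of all genes tested. Fos and Jun had log2 differences of 0.36 and 0.29, and Egr1 one of -0.60. Without control 1, control 2, knockdown 1 or knockdown 2, edgeR called 15, 7, 1 and 2 of the 28 higher, against 10.8%, 2.25%, 0.083% and 0.163% of all genes tested. The list's median log2 difference was 0.41, and 0.28 with the length trend removed.

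Ereg encodes epiregulin, a ligand of the EGF receptor, and it rose from 11.7 and 11.2 CPM to 40.7 and 37.5 CPM (log2 difference 1.77, SE 0.21, edgeR adjusted p = 0.0227). Of 35 neurotrophic and growth factor genes Ereg alone rose and none fell, while 10 were higher and 8 lower at an unadjusted p under 0.05 (background 4.97% and 6.72%). Bdnf, a neurotrophin, was at 51.6 and 49.8 CPM against 93.9 and 104 CPM (log2 difference 0.96, edgeR adjusted p = 0.114). Vgf, a secreted neuropeptide precursor first found as a target of nerve growth factor, rose from 294 and 204 CPM to 823 and 731 CPM (log2 difference 1.64, SE 0.26, edgeR adjusted p = 0.0494).

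Plau encodes the urokinase protease, which turns plasminogen into plasmin, and Plaur encodes its cell-surface receptor. Plau rose from 27.3 and 22.6 CPM to 79.4 and 68.5 CPM (log2 difference 1.57, SE 0.21, edgeR adjusted p = 0.0306). Plaur rose from 28.5 and 19.1 CPM to 66.3 and 77.9 CPM (log2 difference 1.60, SE 0.25, edgeR adjusted p = 0.0464). Of 31 matrix proteases and inhibitors these 2 rose and none fell, and 12 were higher and 2 lower at an unadjusted p under 0.05 (background 4.97% and 6.72%). Mmp14, a membrane metalloproteinase, had a log2 difference of 1.04, and Mmp2, which it activates, one of -0.10. Without control 1, control 2, knockdown 1 or knockdown 2, edgeR called 11, 11, 1 and 1 of the 31 higher, against 10.8%, 2.25%, 0.083% and 0.163% of all genes tested.

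Des, Acta1 and Ankrd1 rose from low levels. Des encodes desmin, the intermediate filament of muscle cells, and rose from 9.90 and 5.44 CPM to 44.4 and 38.3 CPM (log2 difference 2.44, SE 0.30, edgeR adjusted p = 0.0233). Acta1, skeletal muscle actin, rose from 2.04 and 1.53 CPM to 7.09 and 9.59 CPM (log2 difference 2.23, edgeR adjusted p = 0.0444). Ankrd1, a YAP target and cardiac stress gene, rose from 8.86 and 8.13 CPM to 25.1 and 28.9 CPM (log2 difference 1.67, edgeR adjusted p = 0.0306). For these 3 genes the controls lay well below both libraries labelled knockdown. Nppb, a natriuretic peptide gene, and Eno3, muscle enolase, rose with log2 differences of 2.67 and 1.71. Of 23 intermediate filament and actin genes Des rose and Gfap fell, and 8 were higher and 3 lower at an unadjusted p under 0.05 (background 4.97% and 6.72%). Acta2, smooth muscle actin, was at 6694 and 5431 CPM against 7053 and 7935 CPM (log2 difference 0.31, edgeR adjusted p = 0.654).

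Markers of other cells were measured beside these groups. Of 13 tested mural cell markers Des and Mcam rose, and 4 were higher and 0 lower at an unadjusted p under 0.05. Over all genes tested those shares were 4.97% and 6.72%. The summed level of 16 such markers was 14130 and 10040 CPM in the controls against 15610 and 17190 CPM. The defining pericyte marker Rgs5 was at 2.11 and 2.71 CPM against 0.351 and 1.65 CPM. Of 14 endothelial markers Esam, a tight-junction adhesion gene, rose from 13.9 and 12.99 CPM to 43.6 and 43.9 CPM (log2 difference 1.71, edgeR adjusted p = 0.0227). In that list 4 were higher and 2 lower at an unadjusted p under 0.05, and the groups of Pecam1 and Cdh5 overlapped. The summed level of 18 endothelial markers was 127 and 152 CPM against 212 and 213 CPM, with Tie1 and Sox17 at 0 in all 4 libraries. Of 18 fibroblast markers Crabp2, which carries retinoic acid, rose from 16.9 and 8.67 CPM to 58.4 and 48.6 CPM (log2 difference 2.07, edgeR adjusted p = 0.0433). In that list 1 was higher and 3 lower at an unadjusted p under 0.05, and the median log2 difference was -0.001. Dcn and Lum had log2 differences of -0.36 and -0.48. The summed level of 20 fibroblast markers overlapped between groups, at 4972 and 6014 CPM against 6280 and 5307 CPM. None of 24 tested microglia and macrophage markers changed in edgeR or DESeq2, 2 were lower and 0 higher at an unadjusted p under 0.05, and their sum also overlapped, at 661 and 498 CPM against 542 and 658 CPM. None of 17 tested neuron markers passed edgeR's adjusted threshold, 4 were higher and 1 lower at an unadjusted p under 0.05, 16 of 17 had a log2 difference above 0, and the median was 0.45. In DESeq2 4 of the 17 rose (background 1.28%). The summed level of 20 neuron markers was 377 and 349 CPM in the controls against 429 and 460 CPM, with Sst at 0 in all 4 libraries. Tubb3, a neuronal tubulin gene, stood at 49.7 and 43.9 CPM against 101.8 and 99.4 CPM. The neuron marker Snap25 overlapped between groups, at 3.11 and 2.46 CPM against 3.51 and 2.81 CPM (log2 difference 0.18, edgeR adjusted p = 0.886). Syt1, another such marker, was at 1.20 and 1.72 CPM against 2.22 and 2.38 CPM (log2 difference 0.65, edgeR adjusted p = 0.608). The part of other cell types in the changed genes was not tested.

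The other genes that rose had varied roles. Lce1h, a late cornified envelope gene, rose from 2.39 and 1.16 CPM to 21.6 and 24.2 CPM (log2 difference 3.71, SE 0.36, edgeR adjusted p = 0.0227). Crct1, a cysteine-rich gene of the same epidermal cluster on chromosome 3, rose from 53.6 and 25.9 CPM to 274 and 275 CPM (log2 difference 2.79, SE 0.33, edgeR adjusted p = 0.0227). Control 2 was the lowest library for both genes. Perp, a desmosome protein gene and p53 target, rose with a log2 difference of 1.59. Stmn3, a microtubule-destabilising stathmin, rose from 12.3 and 6.11 CPM to 70.9 and 60.0 CPM (log2 difference 2.84, SE 0.32, edgeR adjusted p = 0.0227). Serpinb9b, a granzyme inhibitor of a family with close copies, rose from 38.7 and 40.2 CPM to 130 and 134 CPM (log2 difference 1.75, edgeR adjusted p = 0.0227). Sema7a, a membrane-anchored semaphorin that promotes axon growth, rose from 73.8 and 74.6 CPM to 224 and 228 CPM (log2 difference 1.61, edgeR adjusted p = 0.0296). Edn2, Rln3 and Bcat1 rose with log2 differences of 3.54, 3.11 and 1.46, the first 2 from under 1 CPM. The median exonic length of the 25 genes that rose was 2081 bases, of the 14 that fell 5311 and of all tested coding genes 4355.

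The remaining genes that fell had varied roles. Igsf11, a homophilic adhesion gene, fell from 47.6 and 65.3 CPM to 15.6 and 16.0 CPM (log2 difference -1.84, SE 0.23, edgeR adjusted p = 0.0233). Rab11fip4, an adaptor of Rab11 endosomes, fell from 22.8 and 29.3 CPM to 6.69 and 6.92 CPM (log2 difference -1.94, SE 0.24, edgeR adjusted p = 0.0233). Derl3, a gene of endoplasmic reticulum protein degradation, fell from 13.4 and 14.8 CPM to 2.83 and 4.01 CPM (log2 difference -2.04, SE 0.29, edgeR adjusted p = 0.0336). Replicates of these 3 genes lay closer to each other than to the other group. Slc22a23, a transporter gene, A2m, which encodes the protease inhibitor alpha-2-macroglobulin, Sfxn5, a mitochondrial carrier gene, and Neurl1b, a ubiquitin ligase gene of Notch ligand traffic, fell with log2 differences of -1.70, -1.44, -1.40 and -1.66.

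Of 44 cell cycle genes none changed in edgeR, 19 were lower and 0 higher at an unadjusted p under 0.05 (background 6.72% and 4.97%), and 8 fell in DESeq2 (background 1.39%). The median log2 difference was -0.43. Mki67, a proliferation marker, was at 97.7 and 116 CPM in the controls and at 58.9 and 57.5 CPM in the libraries labelled knockdown (log2 difference -0.88, edgeR adjusted p = 0.154). Top2a, the topoisomerase of dividing cells, was at 147 and 199 CPM against 106 and 94.4 CPM (log2 difference -0.79, edgeR adjusted p = 0.228). Both genes were lower in both libraries labelled knockdown than in either control. Mcm5 and Mcm4, which license DNA for replication, had log2 differences of -0.18 and 0.08. Of 28 neural stem and progenitor genes none changed in edgeR, 9 were lower and 1 higher at an unadjusted p under 0.05, and 2 fell in DESeq2, against the same background shares.

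Ribosomal protein genes separated control 2 from the other 3 libraries. Their summed level was 50580 CPM in control 1, 25320 in control 2, 56830 in knockdown 1 and 59650 in knockdown 2. None of 82 changed in edgeR, and 1 rose in DESeq2 (background 1.28%). Of the 82, 9 were higher and 0 lower at an unadjusted p under 0.05 (background 4.97% and 6.72%). Their median log2 difference was 0.60, but 1.17 without control 1 and 0.21 without control 2. Genes of this family are short, with a median exonic length of 1776 bases, and have many near-identical copies. Oxidative phosphorylation genes also had their lowest sum in control 2, with a median log2 difference of 0.35 and sums of 15340 and 8680 CPM in the controls against 15080 and 14950 CPM.

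**Figure D5:**
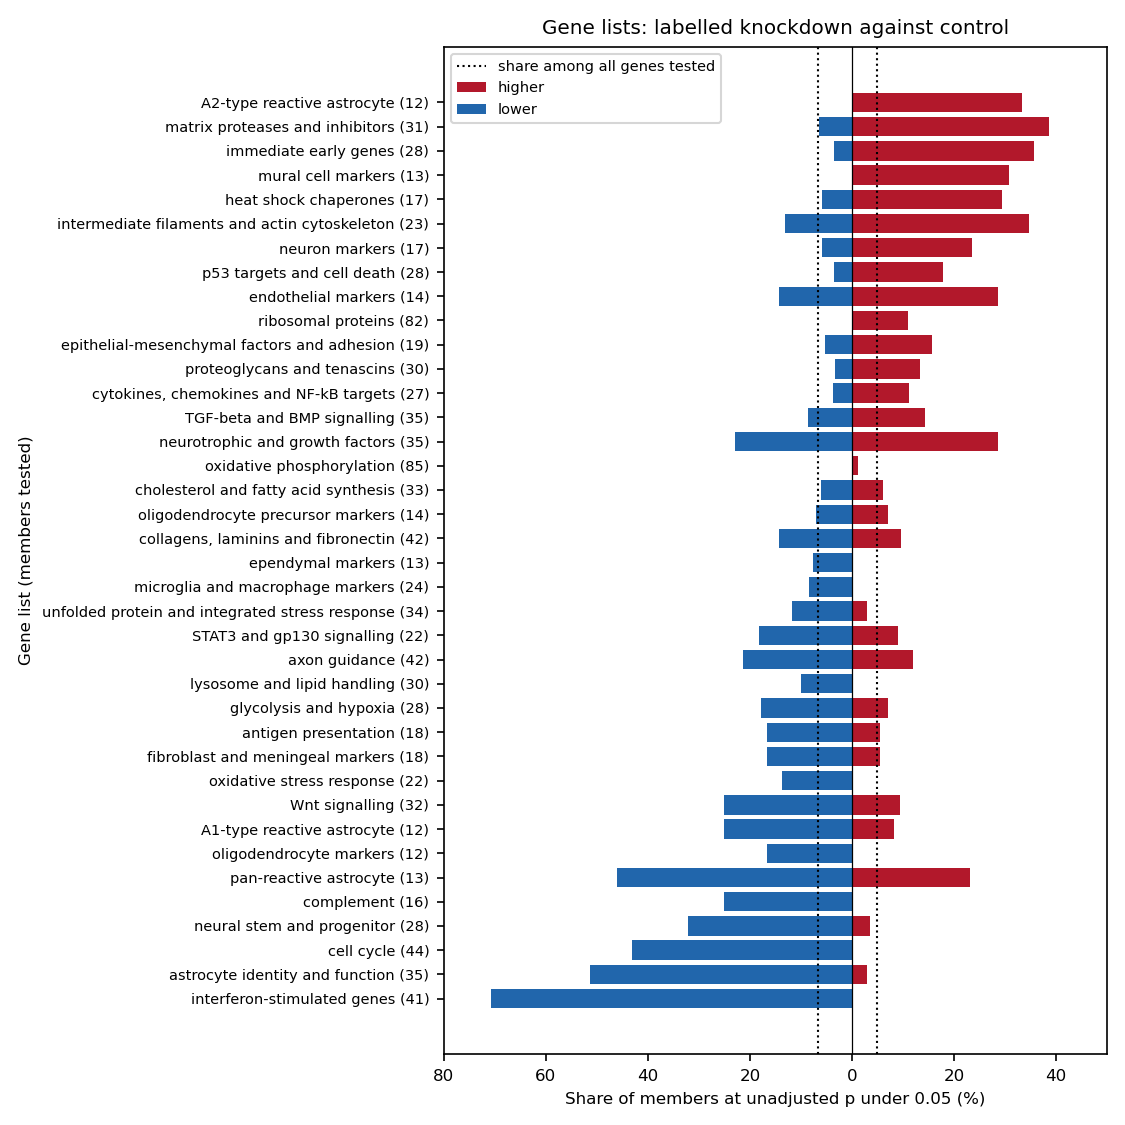
Share of each gene list's tested members (number in brackets on the vertical axis) at an unadjusted p under 0.05 (horizontal axis, percent), lower in the libraries labelled knockdown to the left in blue and higher to the right in red. Dotted lines give the shares among all genes tested, 6.72% lower and 4.97% higher; interferon-stimulated genes reach furthest left with 29 of 41.

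Zeb2 acts in TGF-beta signalling and in epithelial-mesenchymal change. Of 35 TGF-beta and BMP genes and 19 epithelial-mesenchymal factors none passed edgeR's adjusted threshold. At an unadjusted p under 0.05 these lists held 5 and 3 members that were higher and 3 and 1 that were lower. Over all genes tested the shares were 4.97% higher and 6.72% lower. DESeq2 called 3 of each list higher (8.57% and 15.8%, background 1.28%) and none lower (background 1.39%). Inhba, which encodes an activin subunit, was at 289 and 282 CPM in the controls against 570 and 666 CPM (log2 difference 1.11, edgeR adjusted p = 0.106). Cdh1, which encodes E-cadherin, was at 1.43 and 0.856 CPM against 0.772 and 0.620 CPM, too low for a firm comparison. The E-box letters CAGGTG, to which ZEB proteins bind, occurred on either strand in 19.2% of promoters of the genes tested, in 3 of 19 promoters of genes that rose and in 3 of 13 of genes that fell. The letters TTCNNNGAA of the gamma-activated site, which STAT dimers bind, occurred in 7.04%, in 0 of 19 and in 1 of 13, that of Gfap. They occurred in 9 of 37 promoters of the interferon-stimulated genes tested (24.3%).

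Of 5408 long non-coding RNA genes tested, edgeR called 0, against 0.188% of all genes tested. DESeq2 called 14 higher (0.259%) and 9 lower (0.166%), against 1.28% and 1.39% of all genes tested. It gave no adjusted p to 3773 of the 5408, and to 6434 of all 20741 genes. At an unadjusted p under 0.05 in edgeR, 114 were higher and 200 lower, against 4.97% and 6.72% of all genes tested. Of 11 genes within 2 Mb of Zeb2os in the table, Zeb2 and Gtdc1 were tested besides Zeb2os. Gtdc1, a glycosyltransferase-like gene beside Zeb2, was at 12.1 and 11.0 CPM in the controls and at 4.12 and 5.93 CPM in the libraries labelled knockdown. Its groups did not overlap, with a log2 difference of -1.20 (SE 0.28, adjusted p = 0.151 in edgeR), and DESeq2 called it lower.

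A second pair of culture groups in the series received a Zeb2 knockdown lentivirus or a control lentivirus, with 2 libraries each of C57BL/6 astrocytes from pups of postnatal day 4 to 7. Puromycin at 1 µg/ml started 48 h after infection and lasted 3 days, and the genotypes are given as Zeb2 -/- and WT. No library is shared with the Zeb2os set. There Zeb2 stood at 147 and 134 CPM in the controls and at 23.2 and 16.2 CPM in the libraries labelled knockdown, and Zeb2os at 6.00 and 4.05 CPM against 3.34 and 3.70 CPM. The targeted gene thus separated the groups in the Zeb2 set. No gene of 17609 passed the adjusted threshold in that set in edgeR (0%), with 1.55% higher and 2.33% lower at an unadjusted p under 0.05.

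Testing the difference between the 2 knockdown effects in 1 fit of the 8 libraries, edgeR called 0 of 20685 genes (0%), with 1459 at an unadjusted p under 0.05, and DESeq2 called 217. Interferon-stimulated genes had log2 differences above 0 in the Zeb2 set for 32 of 38 tested there, with a median of 0.64, beside -0.94 in the Zeb2os set. Over all 17390 genes tested in both culture sets, 9101 lay above 0 and 8289 below 0 in the Zeb2 set, with a median of 0.03. The difference between the effects was lower in the Zeb2os set at an unadjusted p under 0.05 for 24 of 41 of them and higher for 0, against 4.28% and 2.77% of all genes. Gbp3, for example, had 1.78 in the Zeb2 set and -1.81 in the Zeb2os set, a difference of -3.63 (SE 0.87, edgeR adjusted p = 0.431). Among genes with an average log2 CPM of at least 3, the 5 with the smallest p for the difference were Car2, Serpinb9b, Des, Igsf11 and Zeb2. Their edgeR adjusted p ran from 0.189 to 0.287. Des had a log2 difference of -1.92 in the Zeb2 set and of 2.44 in the Zeb2os set. Among the 25 genes that rose in the Zeb2os set, 18 had a negative and 7 a positive log2 difference in the Zeb2 set. Among the 14 that fell 3 were negative and 11 positive. The background is the 9101 positive and 8289 negative values over all genes tested in both culture sets. Across 10900 genes with an average log2 CPM of at least 3, the 2 knockdown effects correlated at -0.14.

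The genes were also set beside astrocytes sorted from injured spinal cord. These were tdTomato-positive cells from mice of the genotype GFAP-Cre-/+:R26-tdT-/+, taken 7 days after a contusion at T9 (3 libraries) or 7 days after laminectomy alone (3 libraries), each a pool of 3 mice. The reporter marks any cell that uses or once used the GFAP-driven recombinase. In edgeR 2398 of 24286 genes rose after injury (9.87%) and 2042 fell (8.41%). That fit also held astrocyte libraries sorted 1 month and 3 months after injury, which entered its filter and its estimate of spread. A fit of the 2 groups alone called 3495 of 20305 genes, 1774 higher and 1721 lower. Of the 14 genes that fell in the cultures labelled knockdown, 5 (35.7%) had risen after injury: Gfap, Cxcl10, A2m, Neurl1b and Slc22a23. Rab11fip4 and Sfxn5 fell in both. Of the 25 that rose in the cultures, 18 were tested in the sorted cells and 7 were not. Of those 18, 6 had also risen after injury (Esam, Sema7a, Plau, Plaur, Vgf and Mcam) and Nr4a1 had fallen. Over all 19726 genes tested in both the sorted cells and the cultures, 2334 had risen after injury and 1866 had fallen. Gfap had a log2 difference of 2.40 at 7 days (edgeR adjusted p = 9.4e-06), opposite in sign to its value in the cultures, and Plau one of 2.60 (edgeR adjusted p = 1.3e-06), of the same sign. Of all 2334 genes that rose after injury and were tested in the cultures, 6 rose and 5 fell, with a median log2 difference of -0.003 in the cultures. Of 1866 that fell after injury 1 rose and 2 fell, with a median of -0.17. Over the 19726 genes tested in both the sorted cells and the cultures, 18 rose and 14 fell in the cultures, with a median of -0.01.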

How the data were processed

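Only the 4 Zeb2os culture libraries enter the main comparison. The authors deposited whole-number read counts per gene, not normalised. Tools named per the submitters' processing notes are TopHat2 2.1.0, Cufflinks 2.2.1, FastQC and DESeq2, with build mm10; the counting program, annotation and strand setting are not given in the sources used here. Per the labels' protocols, the library kit was directional. Of 33489 Ensembl identifiers 33340 matched GENCODE M21. Low genes were removed with filterByExpr (minimum count 10), TMM factors scaled the libraries, and glmQLFTest of edgeR 4.0.16 (R 4.3.3) compared the groups; p-values were adjusted by Benjamini-Hochberg over all genes tested and called at 0.05. DESeq2 1.42.0, other scaling and filters, a replicate block, thinning and leaving out each library were alternatives. Scripts were tested on simulated data. Levels are CPM after TMM scaling and are not scaled to gene length. An exact permutation test of 2 against 2 cannot go below p = 0.333.

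The members and gene lists were chosen with earlier results of these data known. Named genes are all called genes, the 12 largest rises and falls, up to 4 called members a direction and the first 2 members of each list. Set astrocyte genes, neighbours within 2 Mb of Zeb2os and the 5 smallest p values of the difference test were also named. The 12 largest and the 5 smallest were taken among genes with an average log2 CPM of at least 3. Other list members were named after their values were seen. Some genes enter the counts but are not reported here by name. Exonic length covers 90.2% of genes tested.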

Additional observations from a re-analysis of the deposited data

How the results depend on the processing

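With 39 calls in the knockdown comparison, edgeR gave 625 without the filter on low counts, DESeq2 553, all 8 cultures in 1 fit 0 (1027 at an unadjusted p under 0.05), leaving out a library 20 to 4354, and removing the length trend, added after the data were seen, 145. The split of calls also moved: 64.1% were higher, against 41.3% without the filter, 47.9% in DESeq2 and 95% without knockdown 1. Each of the 39 kept its sign under 11 of 11 alternative settings and its call in 6 to 10 of them. They were chosen in the same libraries, so the kept sign is not independent evidence. The difference between knockdown effects, with 0 calls, had 393 without the filter, 217 in DESeq2 and 0 to 1582 on leaving out a library (1582 without Zeb2 knockdown 2, 51 without Zeb2 knockdown 1). The injury comparison, with 4440 calls, ranged from 2867 (without 7-day replicate 2) to 5504 on leaving out a library. A group left with 1 library was assumed to vary like the other. The cause of these shifts was not tested. Low genes rest on few counts, such as 134 for Zeb2os in knockdown 1.

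With a replicate block edgeR called 554 genes in the knockdown comparison (45.7% higher) and 17 in the difference; Snai1 turned to -0.000321. Deviations of same-numbered replicates correlated at -0.03, and nothing says that they are pairs.

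Named genes near 0 changed sign. On leaving out a library the log2 difference ran from -0.11 to 0.0949 for Snai1, -0.37 to 0.16 for B2m, -0.34 to 0.0499 for H2-K1, -0.0747 to 0.13 for Keap1, -0.12 to 0.19 for Hk1, -0.10 to 0.38 for Pdgfra, -0.0695 to 0.70 for Cdh5, -0.38 to 0.0631 for Zeb2, -0.0402 to 0.93 for Mmp3, -0.20 to 0.14 for Lamp1, -0.17 to 0.0663 for Lamp2, -0.23 to 0.62 for Aif1, -0.12 to 0.0356 for Tgfb1, -0.14 to 0.0059 for Tgfb2, -0.37 to 0.92 for Acan, -0.78 to 0.0614 for Cx3cr1 and -0.29 to 0.0649 for Foxj1. With no filter Snai1 was -0.0109. In the fit of 8 libraries Snai1 was -0.0448, Keap1 -0.0275 and Hk1 -0.0282. With the length trend removed Zeb2 was 0.11, Snai1 -0.22, Tgfb1 0.0105, Tgfb2 0.0191, Lamp2 0.12 and Aif1 -0.0327.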

Other observations

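Complement genes mark and clear synapses and debris. None of 16 tested changed in edgeR, 4 were lower and 0 higher at an unadjusted p under 0.05 (background 6.72% and 4.97% of all genes tested), and 2 fell in DESeq2 (background 1.39%). C4b stood at 10.6 and 13.4 CPM in the controls and at 3.79 and 4.19 CPM in the libraries labelled knockdown (log2 difference -1.59, edgeR adjusted p = 0.0675). C3 stood at 13.4 and 20 CPM against 7.60 and 7.46 CPM (log2 difference -1.15, edgeR adjusted p = 0.145). Both genes were chosen after their values were seen.

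Heat shock chaperone genes had 5 of 17 higher and 1 lower at an unadjusted p under 0.05 (background 4.97% and 6.72%). None was called in edgeR, and 2 were higher in DESeq2 (background 1.28%). Hspa1b, an inducible HSP70 gene with a near-identical copy in Hspa1a, stood at 25.0 and 23.6 CPM in the controls and at 51.2 and 54.2 CPM in the libraries labelled knockdown (log2 difference 1.12, edgeR adjusted p = 0.0731, and 0.0338 with the length trend removed). Igfbp4, a binding protein of insulin-like growth factors, stood at 359 and 234 CPM against 1133 and 867 CPM (log2 difference 1.75, edgeR adjusted p = 0.0542).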
